A study of Mus musculus with 12 samples.

Results

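Imprinted protein-coding genes, which are transcribed mainly from the copy inherited from 1 parent, were followed in mouse embryonic stem cells that differed in genotype and medium. The 46 members were chosen from a list of known imprinted genes and found by symbol among 22416 rows of the count table. They comprise 24 genes expressed from the paternal allele and 16 from the maternal allele in the tissues where they are imprinted, which need not include these cells. The other 6, whose expressed allele depends on the transcript or tissue, are called mixed here. RNA-seq libraries were made from wild-type cells (eIF2α+/+, WT) and from knock-in cells (eIF2αA/A, KI), in which both copies of the translation initiation factor eIF2α lack the serine that stress kinases phosphorylate. Cells of every group grew without serum for 6 days in the presence of leukaemia inhibitory factor (LIF), and the LIF/2i groups also received PD0325901, an inhibitor of MEK, and CHIR99021, an inhibitor of GSK3. The 12 libraries were 3 replicates of each of 4 groups. The question behind the study was what eIF2α phosphorylation does in naive pluripotent cells. The number of clones behind each genotype, and whether replicates were separate cultures, were not given in the sources used here, so the p-values reflect the spread among these libraries, and that spread may be technical.

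At an imprinted locus a control region carries DNA methylation on 1 parental copy, set in the germline and kept through early development by ZFP57 and ZFP445 with TRIM28 and by the maintenance methyltransferase DNMT1 with UHRF1. Genes of the locus are read from the copy that the mark, or its absence, leaves active. Many imprinted genes act on growth of the fetus and placenta. Embryonic stem cells are known to lose or change imprints in culture, and their DNA methylation is known to be lower in 2i media. The counts do not separate the 2 parental alleles. Every value below is the sum over both copies. The class names say which allele is expressed where the gene is imprinted, not which one was expressed in these cells.

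The promoters of Mest and Plagl1, 2 genes that differed between media in both genotypes, are shown first. They were picked because both hold the hexamer TGCCGC, the letters ZFP57 is known to bind when methylated. They are followed by the interval between the divergent starts of Peg3 and Usp29, a pair that differed in direction between media in WT cells. Sequences are from RefSeq on GRCm38.p6, written 5′ to 3′ on the plus strand, and end just before the start of the counted transcript. Capitals mark TGCCGC or its reverse complement GCGGCA. The Mest promoter is chr6:30737803-30738052, with 250 bases, 2 matches and 14 CpG dinucleotides. The Plagl1 promoter is chr10:13090582-13090787, with 206 bases, 1 match and 15 CpG. The Peg3-Usp29 interval is chr7:6730420-6730582, with 163 bases, 0 matches and 5 CpG.
Mest promoter: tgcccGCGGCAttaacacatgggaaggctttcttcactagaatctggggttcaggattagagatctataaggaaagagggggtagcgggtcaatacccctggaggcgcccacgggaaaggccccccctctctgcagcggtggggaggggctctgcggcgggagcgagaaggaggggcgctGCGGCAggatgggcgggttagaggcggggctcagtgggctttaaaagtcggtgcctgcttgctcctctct
Plagl1 promoter: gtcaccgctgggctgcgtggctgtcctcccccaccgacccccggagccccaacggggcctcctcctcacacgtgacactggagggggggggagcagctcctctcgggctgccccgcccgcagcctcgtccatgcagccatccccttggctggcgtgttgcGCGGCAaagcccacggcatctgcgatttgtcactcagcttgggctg
Peg3-Usp29 interval: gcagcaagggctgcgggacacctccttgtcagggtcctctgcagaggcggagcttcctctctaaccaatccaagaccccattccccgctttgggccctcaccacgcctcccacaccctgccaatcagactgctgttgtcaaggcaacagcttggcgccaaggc

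Of the 46 members, 39 had a RefSeq promoter, and 7 of these 39 (17.9%) held TGCCGC on either strand in the 250 bases before a start site, against 2660 of 27025 genes with a promoter (9.84%). The 7 were Mest, Plagl1, Mcts2 and Nap1l5 of the paternal class and Copg2, Zim1 and Calcr of the maternal class. In the same window these 39 genes had a median of 14 CpG, beside 6 over all genes with a promoter. For each gene any of its promoters could hold the hexamer, and the promoter with most CpG was taken. Counted by promoter, 8 of the 60 of members (13.3%) held the hexamer, against 2850 of all 32851 (8.68%). The median CpG was then 12, beside 6. A match is a run of letters and was not tested for binding.

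Library totals ran from 2307219 to 9713857 counts, and 3 counts, the floor used here, came to between 0.313 and 1.27 counts per 1000000 (CPM). Counts of 2 libraries, replicates 1 and 3 of WT LIF, differed less than sampling noise allows, and their mean was counted as 1 sample, so WT LIF had 2 samples and the fit 11. The summed level of 12 pluripotency genes was 4662 to 5161 CPM in WT LIF/2i, 3308 and 3489 CPM in WT LIF, 4749 to 5644 CPM in KI LIF/2i and 3999 to 4559 CPM in KI LIF. It was lower in LIF in both genotypes. The least abundant of the list were Zfp42 (32.1 to 74.4 CPM) and Tdgf1 (13.5 to 41.1 CPM). Eif2s1, which encodes eIF2α, had 23.3 to 57.6 CPM; the knock-in alters a codon, so a count of reads checks no label. WT LIF replicate 2 stood apart from the averaged pair. The summed level of 14 fibroblast markers was 617 CPM in it against 75.9 CPM in the pair, with Col1a1 at 169 against 13.1 CPM and Col1a2 at 206 against 7.44 CPM, while Lum stayed at 0. Keratins of the trophectoderm list were also high in it, with Krt8 at 70.5 against 15.4 CPM, while Elf5 was at 0.303 CPM. Calls of members that involve WT LIF are therefore given with and without this library. Class medians, calls of marker genes and calls of genes that set or keep imprints are given with it only.

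Among the members, 42 passed the filter on low counts and were tested. Rtl1, Kcnq1, Calcr and Nap1l5 did not, with 5, 9, 16 and 39 counts over the 12 libraries. A gene could pass through 1 group alone, so the 42 are not a neutral sample of the 46. Mean level per kilobase of coding sequence, which allows genes to be compared, ran from 0.341 CPM per kb for Rasgrf1 to 394 CPM per kb for Cd81. The 4 highest of the paternal class were Peg10 (308 CPM per kb), Slc38a4 (204), Mest (169) and Gab1 (161). The 4 highest of the maternal class were Cd81 (394), Copg2 (73.9), Phlda2 (69.1) and Commd1 (62.2), and those of the mixed class Gnas (65.3), H13 (26.4), Ddc (19.9) and Grb10 (11.4). Peg3 had no matched transcript and so no length, and its mean was 577 CPM. Several members share coding sequence with other annotated transcripts, and how such reads were assigned was not stated. The share of 30-base windows also found in another gene was 96.9% for Usp29 (in a Zim3 transcript), 95.4% for Igf2 (in the readthrough gene Gm49394), 61.7% for Commd1, 52.5% for Cdkn1c and 50.5% for Snrpn (in Gm38393, Gm5802 and Gm14881). It was 49.6% for Blcap, 26.2% for Gnas and 19.8% for Ube3a. Their values are uncertain in that respect, as are those of the overlapping pairs Mest and Copg2, Nnat and Blcap, Zrsr1 and Commd1, and Mcts2 and H13.

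**Figure D1:**
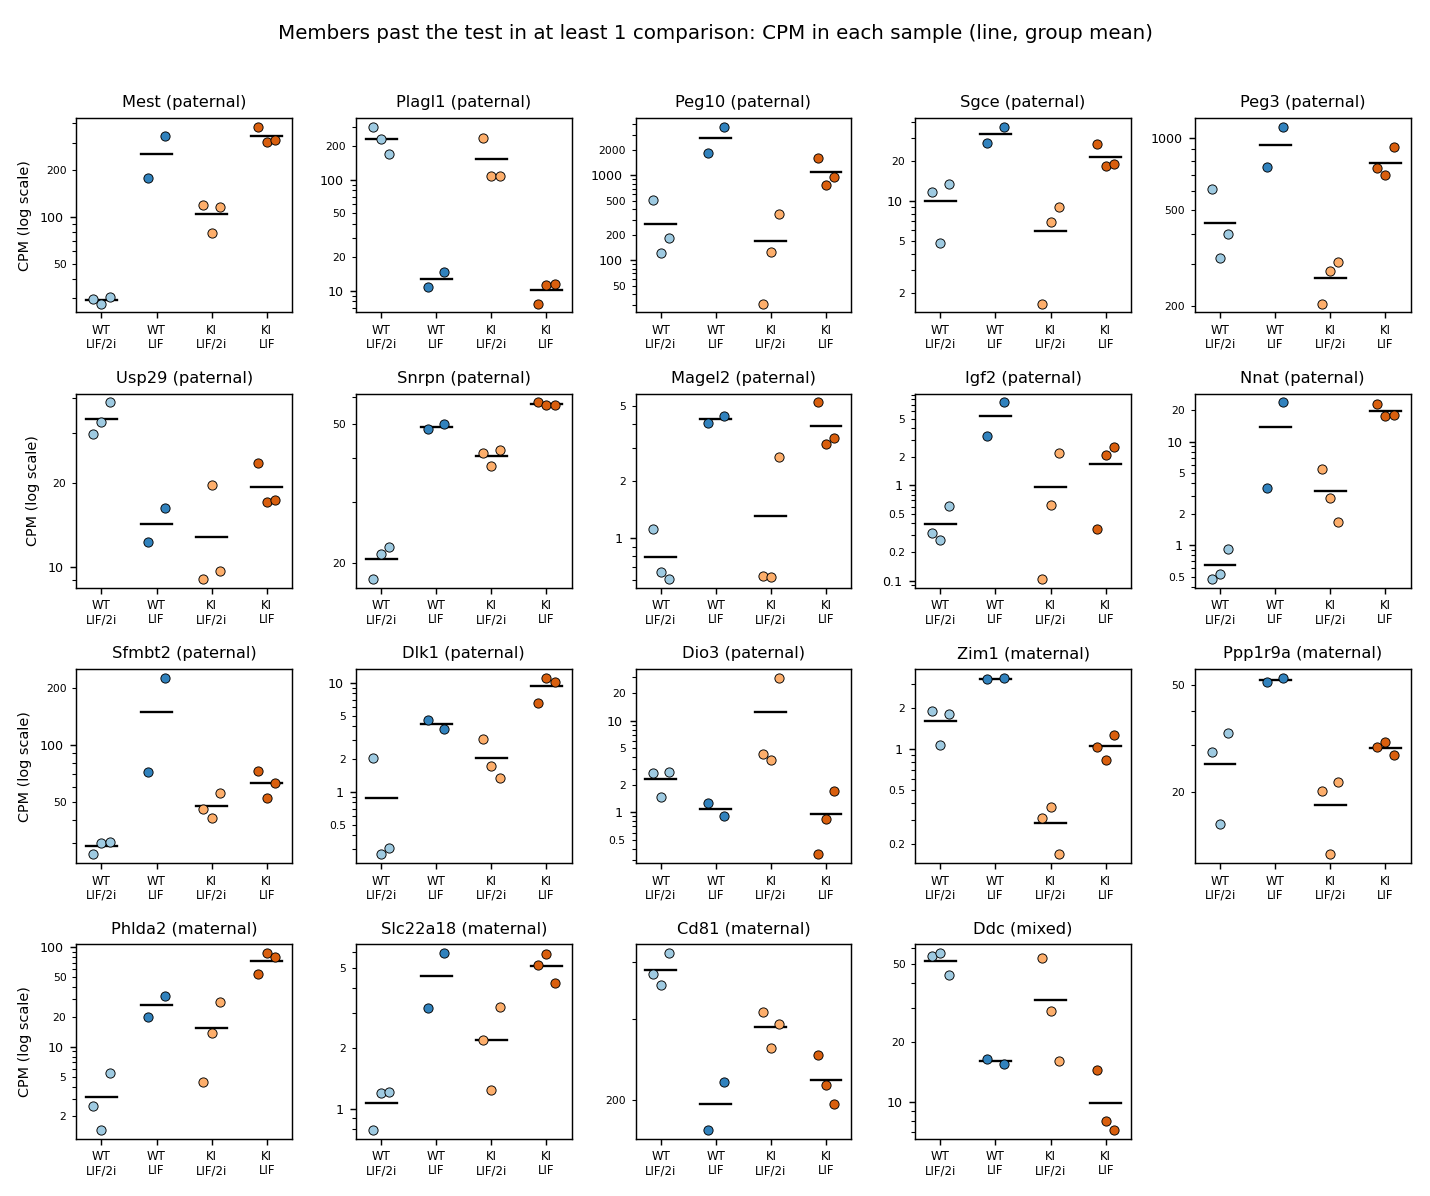
CPM on log axes of the 19 members that passed the test in at least 1 comparison, in each of the 11 samples (points) with group means (lines); the left point of WT LIF is the mean of 2 agreeing libraries and the right one replicate 2. Mest sits between 27.6 and 30.4 CPM in the 3 WT LIF/2i samples and at 78.9 CPM or more in all the others, and Plagl1 falls from 108 CPM or more in LIF/2i to 14.7 CPM or less in LIF.

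Most of the differences that passed the test were between media. In WT cells 15 of 42 tested members differed between LIF and LIF/2i, 11 higher and 4 lower in LIF, that is 35.7% of members where 13% of all 13229 tested genes passed (6.3% higher and 6.65% lower). In KI cells 10 of 42 differed, 7 higher and 3 lower, or 23.8% where 9.05% of all genes passed (4.05% higher and 5% lower). The threshold was an adjusted p of 0.05 in edgeR's quasi-likelihood test, adjusted by Benjamini-Hochberg over all tested genes. Mest, Peg10, Peg3, Nnat and Phlda2 were higher in LIF, and Plagl1 and Ddc lower, in both genotypes. The median log2 difference over tested members was 0.17 in WT and 0.40 in KI cells, beside 0.01 and -0.03 over all genes. By class, 10 of 22 paternal, 4 of 14 maternal and 1 of 6 mixed members passed in WT cells, and 8, 1 and 1 in KI cells. The medians of the paternal class were 0.49 and 0.50, and those of the maternal class -0.04 and 0.42.

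Mest, a paternally expressed gene for a membrane protein of the hydrolase fold that promotes growth, lies at chr6:30738053-30748465 on GRCm38 and overlaps the maternally expressed coatomer gene Copg2. It had 29.5, 27.6 and 30.4 CPM in the WT LIF/2i samples, 177 and 333 CPM in WT LIF, 119, 78.9 and 116 CPM in KI LIF/2i, and 379, 304 and 311 CPM in KI LIF. The WT LIF/2i samples were the lowest and lay close together, and neither medium comparison overlapped. The log2 difference of LIF from LIF/2i was 3.13 ± 0.26 (SE, adjusted p = 9.51e-05) in WT and 1.66 ± 0.23 (adjusted p = 0.00128) in KI cells. Copg2 had 133 to 254 CPM over all samples and passed no test.

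Plagl1, a zinc finger transcription factor that restrains growth and is known to act on other imprinted genes, lies at chr10:13090788-13131694 and moved the other way. It had 299, 234 and 170 CPM in WT LIF/2i, 10.7 and 14.7 CPM in WT LIF, 240, 109 and 108 CPM in KI LIF/2i, and 7.62, 11.3 and 11.4 CPM in KI LIF. Every LIF sample was below every LIF/2i sample. It fell by 4.21 ± 0.42 on the log2 scale in WT (adjusted p = 0.000249) and by 3.91 ± 0.37 in KI cells (adjusted p = 0.0003). Among the 42 tested members it had the lowest log2 difference in both medium comparisons. The printed promoters of Mest and Plagl1 both hold the hexamer, and the 2 genes moved in opposite directions.

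At the Peg3 locus on chromosome 7, Peg3, a paternally expressed zinc finger gene known for its part in maternal behaviour and growth, starts back to back with Usp29, a gene for a ubiquitin-specific protease, as shown by the 163 bases printed above. Peg3 had 615, 317 and 400 CPM in WT LIF/2i, 757 and 1108 CPM in WT LIF, 205, 279 and 304 CPM in KI LIF/2i, and 748, 702 and 914 CPM in KI LIF. It rose in LIF by 1.07 ± 0.27 in WT (adjusted p = 0.0212) and by 1.59 ± 0.25 in KI cells (adjusted p = 0.00279), with no overlap between media. Usp29 had 29.7, 32.9 and 38.6 CPM in WT LIF/2i, 12.3 and 16.2 CPM in WT LIF, 9.08, 19.7 and 9.73 CPM in KI LIF/2i, and 23.5, 17.1 and 17.4 CPM in KI LIF. It was highest in WT LIF/2i and fell in WT cells by 1.24 ± 0.34 in LIF (adjusted p = 0.0326). In KI cells the media overlapped (0.59 ± 0.30, adjusted p = 0.273). Without KI LIF/2i replicate 2, at 19.7 CPM, Usp29 passed as higher in KI LIF (1.05, adjusted p = 0.0332). The paternally expressed neighbours thus moved in opposite directions in WT cells, with the reservation that nearly all of the coding sequence of Usp29 is shared with a Zim3 transcript. Zim1, a maternally expressed zinc finger gene of the locus, was above the LIF/2i samples in both LIF groups without passing the test (1.06 ± 0.46 in WT, adjusted p = 0.152, and 1.71 ± 0.59 in KI, adjusted p = 0.0979).

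Peg10, a gene derived from a retrotransposon that the placenta requires, and Sgce, which encodes epsilon-sarcoglycan, are transcribed away from each other from starts 129 bases apart on chromosome 6. Peg10 had 508, 122 and 181 CPM in WT LIF/2i, 1842 and 3714 CPM in WT LIF, 30.9, 124 and 353 CPM in KI LIF/2i, and 1598, 772 and 954 CPM in KI LIF. Replicates in LIF/2i spread widely, yet no LIF sample reached down to them. It rose by 3.36 ± 0.80 in WT (adjusted p = 0.0177) and by 2.71 ± 0.75 in KI cells (adjusted p = 0.0425).

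Sgce had 11.7, 4.8 and 13.4 CPM in WT LIF/2i, 27.7 and 36.4 CPM in WT LIF, 1.67, 6.97 and 9.06 CPM in KI LIF/2i, and 27.3, 18.4 and 19 CPM in KI LIF. KI LIF/2i replicate 1 was the lowest sample for both genes, and WT LIF replicate 2 the highest. The rise passed in KI cells (1.90 ± 0.52, adjusted p = 0.0406) and was of like size in WT cells without passing (1.72 ± 0.54, adjusted p = 0.055). The WT value passed under 8 of 22 alternatives, DESeq2 (adjusted p = 0.0194) and limma-voom (0.0236) among them, and the KI call was lost under 9 of 23. Ppp1r9a, a maternally expressed neighbour that encodes the actin-binding protein neurabin, had 28.3, 15.3 and 33.1 CPM in WT LIF/2i, 51.3 and 53.1 CPM in WT LIF, 20.2, 11.8 and 21.8 CPM in KI LIF/2i, and 29.4, 30.7 and 27.5 CPM in KI LIF. It rose in WT LIF (1.04 ± 0.31, adjusted p = 0.0447). In KI cells the media did not overlap either, at 0.71 ± 0.29 (adjusted p = 0.158). Asb4, the remaining tested gene of the locus, stayed at 1.9 CPM or less.

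In the Prader-Willi and Angelman region of chromosome 7, Snrpn, which encodes a spliceosomal Sm protein, had 18.0, 21.3 and 22.2 CPM in WT LIF/2i, 48.4 and 50.0 CPM in WT LIF, 41.5, 38.0 and 42.3 CPM in KI LIF/2i, and 57.8, 56.7 and 56.7 CPM in KI LIF. The 4 groups did not overlap and ordered from WT LIF/2i through KI LIF/2i and WT LIF to KI LIF. The rise in WT cells was 1.27 ± 0.16 (adjusted p = 0.000857), and the value in KI cells was 0.49 ± 0.14 (adjusted p = 0.0525). Magel2, a paternally expressed regulator of endosomal protein sorting, was near the floor in WT LIF/2i, at 1.11, 0.666 and 0.608 CPM, and had 4.04 and 4.40 CPM in WT LIF, 0.627, 0.622 and 2.69 CPM in KI LIF/2i, and 5.19, 3.13 and 3.39 CPM in KI LIF. Over summed counts, 54 against 14, its WT ratio was 5.11 (exact 95% interval 2.80 to 9.97), and the test gave an adjusted p of 0.0308. Such intervals, here and below, cover counting error only. The 4 other tested genes of this region, Ndn, Mkrn3 and Peg12 of the paternal class and the ubiquitin ligase gene Ube3a of the maternal class, passed no test, with log2 differences of -0.07 to 0.19 in WT and -0.23 to 0.55 in KI cells. The plot of neighbouring genes in chromosome order shows these values.

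**Figure D2:**
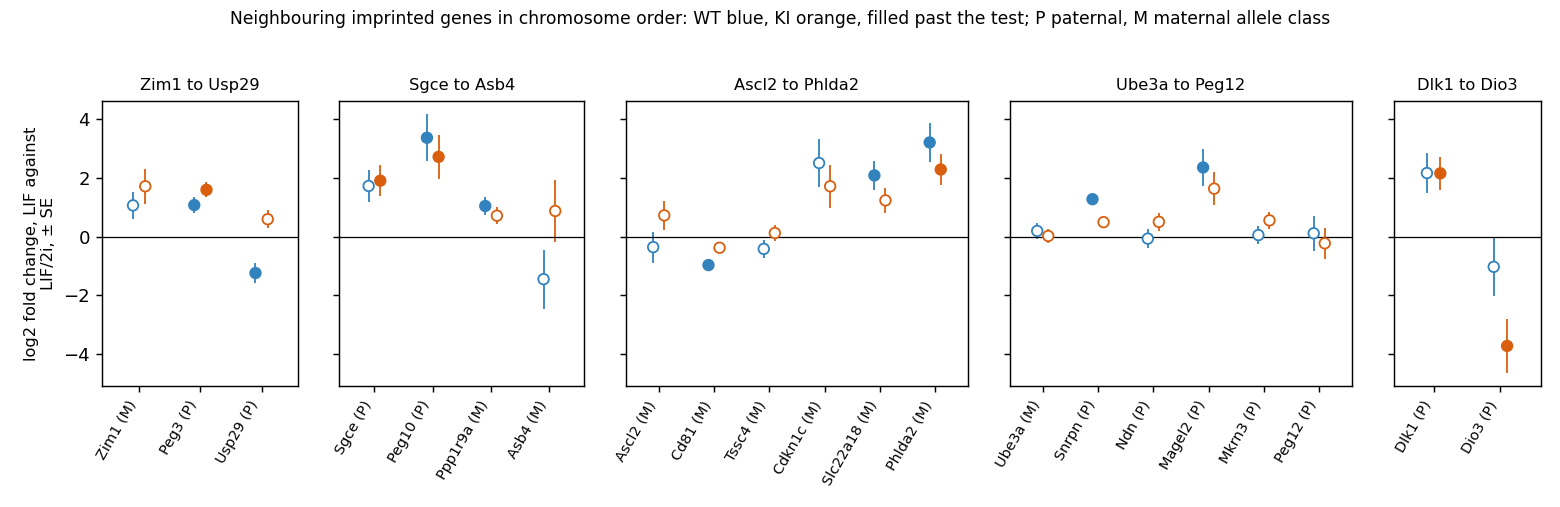
Log2 fold change of LIF against LIF/2i with its SE for tested members of 5 imprinted loci, in chromosome order, in WT (blue) and KI cells (orange); filled points passed the test. Peg3 rises and Usp29 falls side by side in WT cells, Phlda2 rises and Cd81 falls within the same locus in WT cells, and Dlk1 and Dio3 lie on opposite sides of 0.

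The Kcnq1 domain of chromosome 7 holds maternally expressed genes that restrain placental growth. Phlda2, which encodes a small pleckstrin homology protein with that role, had 2.53, 1.47 and 5.47 CPM in WT LIF/2i, 20.1 and 32.4 CPM in WT LIF, 4.49, 13.7 and 28.0 CPM in KI LIF/2i, and 53.7, 87.0 and 79.6 CPM in KI LIF. It rose by 3.20 ± 0.66 in WT (adjusted p = 0.0088) and by 2.28 ± 0.53 in KI cells (adjusted p = 0.0211), with no overlap between media. Slc22a18, the transporter gene beside it, had 0.79, 1.2 and 1.22 CPM in WT LIF/2i, 3.17 and 5.91 CPM in WT LIF, 2.19, 1.24 and 3.19 CPM in KI LIF/2i, and 5.19, 5.84 and 4.23 CPM in KI LIF. It rose in WT cells by 2.08 ± 0.50 (adjusted p = 0.018) and had 1.23 ± 0.43 in KI cells (adjusted p = 0.102).

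Cd81, which encodes a tetraspanin and lies at the other end of the same domain, fell where these rose. It had 377, 356 and 418 CPM in WT LIF/2i, 172 and 219 CPM in WT LIF, 311, 260 and 293 CPM in KI LIF/2i, and 250, 216 and 196 CPM in KI LIF. Both LIF groups lay below their LIF/2i groups. It fell by 0.97 ± 0.16 on the log2 scale in WT cells (adjusted p = 0.00323), and the value in KI cells was -0.38 ± 0.14 (adjusted p = 0.12). Cdkn1c, the cell cycle inhibitor of the domain, had 0.632, 0.933 and 2.74 CPM in WT LIF/2i and 3.24 and 11.4 CPM in WT LIF. It did not pass (2.50 ± 0.82, adjusted p = 0.0655), though it did under 6 of 22 alternatives, with DESeq2 for one (0.0357). In KI cells it had 0.627 to 2.74 CPM in LIF/2i and 1.73 to 8.97 CPM in LIF. The KI media overlapped (1.71 ± 0.73, adjusted p = 0.18). Ascl2 and Tssc4 passed no test, between -0.42 and 0.72 in the medium comparisons.

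Of the paired growth genes, Igf2, the fetal growth factor, was near the floor in most samples and Igf2r, the receptor that clears it, had 47.9 CPM per kb. Igf2 had 0.316, 0.266 and 0.608 CPM in WT LIF/2i, 3.32 and 7.43 CPM in WT LIF, 0.104, 0.622 and 2.18 CPM in KI LIF/2i, and 0.346, 2.09 and 2.54 CPM in KI LIF. The WT LIF samples were above all others. Summed counts were 70 against 6 in WT cells, a ratio of 15.5 (exact 95% interval 6.76 to 43.6), and the test passed (adjusted p = 0.0209); in KI cells the media overlapped (0.89 ± 0.87, adjusted p = 0.602). Igf2r had 220 to 492 CPM over all samples and log2 differences of -0.17 and -0.05 between media.

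At the Dlk1-Dio3 locus of chromosome 12, Dlk1, a membrane ligand that holds back differentiation, had 2.05, 0.266 and 0.304 CPM in WT LIF/2i, 4.59 and 3.79 CPM in WT LIF, 3.03, 1.74 and 1.34 CPM in KI LIF/2i, and 6.58, 11.1 and 10.2 CPM in KI LIF. It rose in KI cells by 2.15 ± 0.56 (adjusted p = 0.0325), and WT cells had 2.16 ± 0.67 without passing (adjusted p = 0.0541). The WT value passed under 9 of 22 alternatives, among them DESeq2 (0.0196), limma-voom (0.0257) and no filter (0.0408). Dio3, the deiodinase that inactivates thyroid hormone, had 2.69, 1.47 and 2.74 CPM in WT LIF/2i, 1.27 and 0.909 CPM in WT LIF, 4.28, 3.73 and 29.4 CPM in KI LIF/2i, and 0.346, 0.834 and 1.69 CPM in KI LIF. KI LIF/2i replicate 3 stood far above the others. Summed counts were 9 in KI LIF and 246 in KI LIF/2i, so that Dio3 was lower in LIF by a ratio of 11.7 (exact 95% interval 6.04 to 25.8, adjusted p = 0.0247). Its log2 difference of -3.72 became -2.11 without KI LIF/2i replicate 3 (adjusted p = 0.0483).

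Nnat, a paternally expressed gene for a small proteolipid of the endoplasmic reticulum, rose in both genotypes. It had 0.474, 0.533 and 0.912 CPM in WT LIF/2i, 3.56 and 23.8 CPM in WT LIF, 5.43, 2.86 and 1.68 CPM in KI LIF/2i, and 22.8, 17.5 and 18.2 CPM in KI LIF. The WT rise passed (4.48 ± 0.78, adjusted p = 0.004). Summed counts in WT cells were 180 against 10, a ratio of 23.9 (exact 95% interval 12.7 to 50.6). WT LIF replicate 2 gave 157 of these counts, and without it the log2 difference was 2.53. The interval covers counting error only, not this spread between replicates. The KI difference was 2.51 ± 0.59 (adjusted p = 0.0214). Sfmbt2, a paternally expressed Polycomb-related gene needed by the trophoblast, had 26.2, 30.2 and 30.4 CPM in WT LIF/2i, 71.4 and 227 CPM in WT LIF, 45.4, 40.8 and 55.7 CPM in KI LIF/2i, and 73.0, 52.1 and 63.1 CPM in KI LIF. Its rise passed in WT cells (2.37 ± 0.36, adjusted p = 0.00225), and the value in KI cells was 0.40 ± 0.33 (adjusted p = 0.508). Ddc, the aromatic amino acid decarboxylase gene beside Grb10, fell in both genotypes. It had 54.5, 56.6 and 44.1 CPM in WT LIF/2i, 16.5 and 15.6 CPM in WT LIF, 53.4, 28.9 and 16.1 CPM in KI LIF/2i, and 14.5, 7.93 and 7.19 CPM in KI LIF. The log2 differences were -1.69 ± 0.43 (adjusted p = 0.0239) and -1.74 ± 0.40 (adjusted p = 0.0191).

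**Figure D3:**
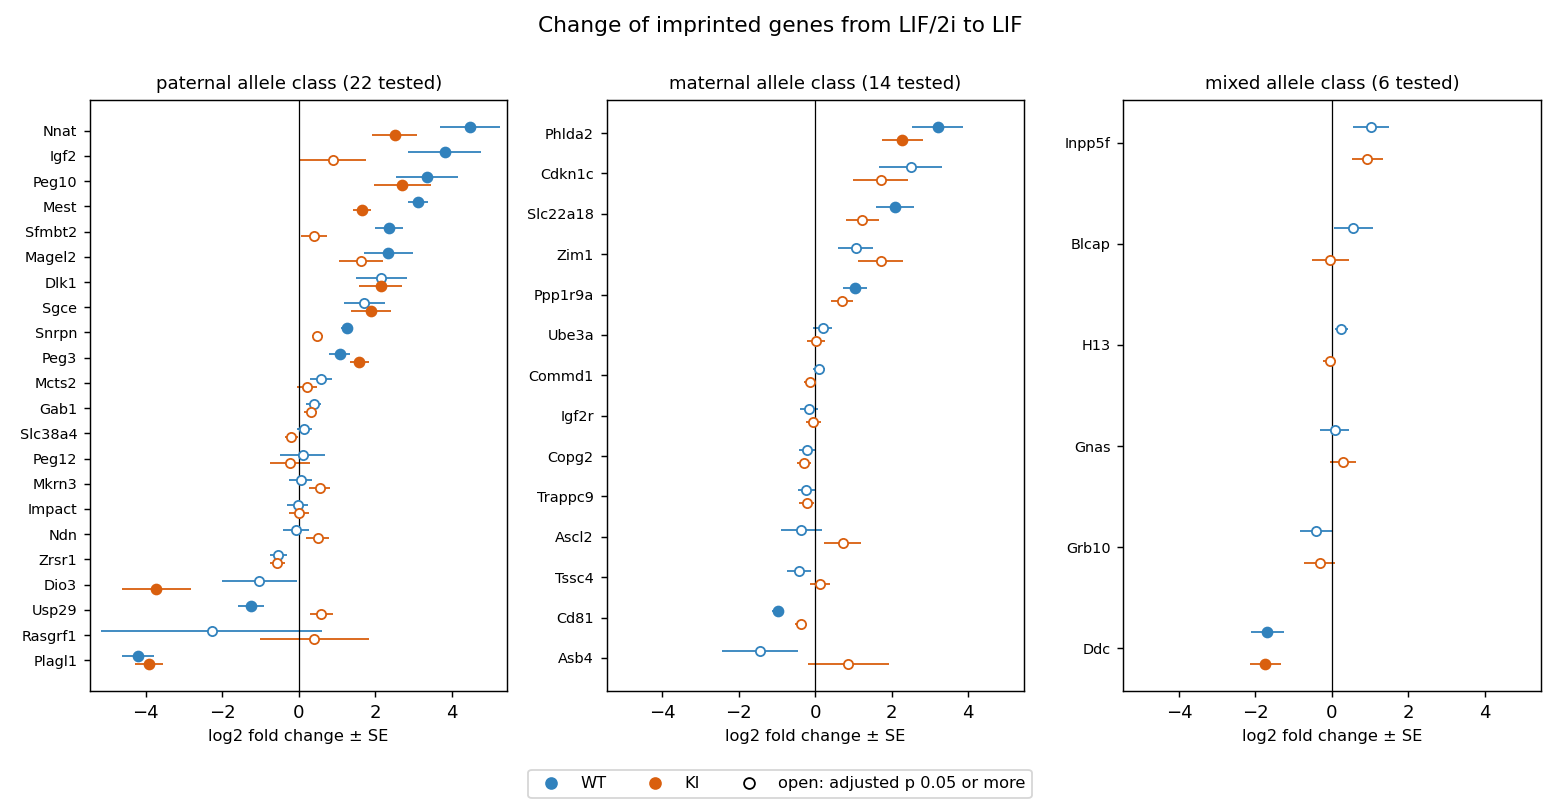
Log2 fold change of LIF against LIF/2i with its SE for the 42 tested members by allele class, in WT (blue) and KI cells (orange); filled points have an adjusted p under 0.05. Most filled points lie right of 0 and belong to the paternal class (8 higher of 22 in WT and 6 in KI cells), and Plagl1 lies at the far left of that class.

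Mest, Plagl1, Snrpn, Cd81 and Sfmbt2 passed the WT medium comparison under all 22 alternative settings, and each of the other 10 calls was lost without at least 1 library. Without WT LIF replicate 2 only those 5 of the 15 remained, 3 higher and 2 lower, while all genes passing dropped from 1714 to 390. The 10 lost were Igf2 (log2 3.13, adjusted p = 0.171), Peg3 (0.77, 0.224), Usp29 (-1.46, 0.12), Peg10 (2.76, 0.128), Ppp1r9a (1.02, 0.199), Phlda2 (2.81, 0.0778), Slc22a18 (1.56, 0.203), Magel2 (2.28, 0.149), Nnat (2.53, 0.0673) and Ddc (-1.66, 0.16). Sfmbt2 kept its call at 1.3 (adjusted p = 0.0222), with WT LIF then held as 1 sample assumed to vary like the other groups. Leaving out WT LIF/2i replicate 1 ended the calls of Igf2, Usp29, Ppp1r9a, Slc22a18, Magel2 and Ddc (adjusted p from 0.0654 to 0.0941) and moved Peg10 to 4.19. Leaving out WT LIF/2i replicate 2 ended 8 calls, the same 6 with Peg3 and Peg10 (adjusted p from 0.0515 to 0.119), and leaving out replicate 3 ended Peg3, Usp29, Peg10 and Magel2 (0.0544 to 0.0692). The call of Ppp1r9a was also lost without any 1 of the KI LIF libraries (adjusted p from 0.0515 to 0.0655).

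Marker genes of several cell types also differed between media. The summed fibroblast markers were 19.1 to 22.7 CPM in WT LIF/2i, 33.2 to 80.9 CPM in KI LIF/2i and 195 to 267 CPM in KI LIF, and of 10 tested fibroblast markers 7 rose in WT LIF and 3 in KI LIF, where 6.3% and 4.05% of all genes were called higher. The summed trophectoderm markers were 223 to 236 CPM in WT LIF/2i, 396 and 546 CPM in WT LIF, 205 to 272 CPM in KI LIF/2i and 253 to 288 CPM in KI LIF, so that the KI groups overlapped. Of 11 tested trophectoderm markers 6 rose and 1 fell in WT cells, and 2 rose and 1 fell in KI cells. Primitive endoderm markers summed to 360 to 628 CPM in WT LIF/2i and 969 and 1258 CPM in WT LIF, with 357 to 407 and 645 to 689 CPM in the KI groups, and 3 of 13 tested rose in WT and 2 in KI cells. Neuroectoderm markers summed to 56.8 to 99.7 CPM in WT LIF/2i, 85.1 and 109 CPM in WT LIF, 39.6 to 123 CPM in KI LIF/2i and 135 to 142 CPM in KI LIF, with 2 of 7 tested higher in LIF in each genotype. Of 12 tested pluripotency genes 6 fell and 1 rose in LIF in each genotype. Among defining genes, Lum (highest 0.0791 CPM), Elf5 (0.317 CPM) and Dcx (0.758 CPM) were at or near 0 in all samples. Others were not: from WT LIF/2i to the 2 WT LIF samples, Hand1 went from 0.304 CPM or less to 7.36 and 16.8 CPM, Pax6 from 0.316 CPM or less to 4.59 and 3.49 CPM, and Acta2 from 2.84 CPM or less to 12.8 and 107 CPM. Within WT LIF, replicate 2 was over 2-fold above the averaged pair for 8 of 42 tested members, among them Nnat (6.68-fold), Cdkn1c (3.50-fold), Sfmbt2 (3.19-fold), Igf2 (2.23-fold) and Peg10 (2.02-fold), and for 604 of 13229 genes. The 8 include Asb4, which lies near the floor (0.606 against 0.237 CPM). Replicate 2 was over 2-fold below the pair for 2 members, Grb10 (0.448-fold) and Rasgrf1 (0 against 0.158 CPM). Genes below the pair were not counted over the whole table, so this number has no background. The part of other cell types in the differences of imprinted genes was not tested, and in bulk RNA fewer cells with a transcript and less of it per cell cannot be told apart.

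**Figure D4:**
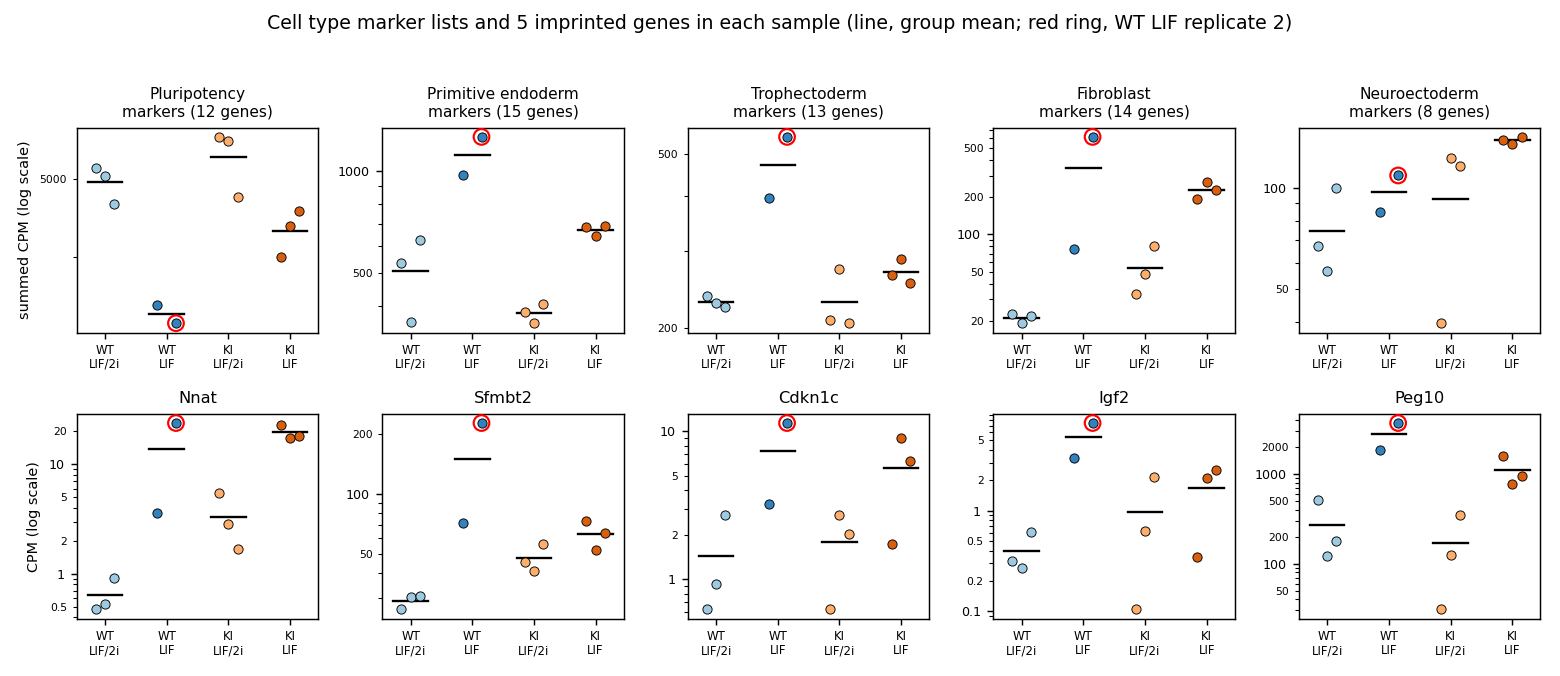
Summed CPM of 5 marker lists (top) and CPM of 5 members (bottom) in each sample on log axes, with group means as lines and WT LIF replicate 2 ringed in red. The ringed sample is the highest for fibroblast (617 CPM), primitive endoderm (1258 CPM) and trophectoderm markers (546 CPM). It is also the highest for each of the 5 members. These were picked from the 8 in which it was over 2-fold above the averaged pair. For the others of the 8, Peg12, Ascl2 and Asb4, it was not the highest sample.

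In KI cells the calls of Mest, Plagl1 and Peg3 held under all 23 alternative settings, and those were the 3 left without KI LIF replicate 2 or without KI LIF replicate 3. Without either library Peg10, Sgce, Dlk1, Dio3, Phlda2, Nnat and Ddc were lost, with adjusted p from 0.0552 to 0.123. Leaving out KI LIF/2i replicate 2 ended Peg10, Sgce, Dlk1, Phlda2 and Nnat (0.0619 to 0.111), replicate 3 of that group ended Dlk1 and Nnat (0.0875 and 0.069), replicate 1 ended Peg10 (0.0508), and KI LIF replicate 1 ended Peg10, Sgce and Dio3 (0.0692 to 0.0927). The calls of Peg10 and Sgce also ended without WT LIF replicate 2 (0.0519 and 0.0578), and that of Sgce without WT LIF/2i replicate 1 (0.0548). Without KI LIF/2i replicate 3 Peg10 was at 3.84 and Phlda2 at 3.03. Same-numbered KI libraries deviated together across media. With the KI replicate number as a block, 1798 of all genes passed in place of 1197. Among the members 11 passed, 8 higher and 3 lower: Peg10 was lost (3.12, adjusted p = 0.0821), and Snrpn (0.50, adjusted p = 0.0406) and Magel2 (1.82, adjusted p = 0.0443) were gained.

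Fewer members passed between genotypes. In LIF/2i, 4 of 42 members passed (9.52%), 2 higher and 2 lower in KI cells, where 2.21% of all tested genes passed (0.975% higher and 1.24% lower). Mest and Snrpn were higher and Usp29 and Zim1 lower, in a comparison that shares its WT LIF/2i samples with the medium comparison in WT cells and its KI samples with that in KI cells. The median log2 difference over tested members was 0.09, beside 0.02 over all genes.

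The Mest values given above put every KI LIF/2i sample (78.9 to 119 CPM) above every WT one (27.6 to 30.4 CPM), at a log2 difference of 1.85 ± 0.24 (adjusted p = 0.00378), and the call held under all 22 alternatives (1.72 to 2.00). Snrpn was at 38.0 to 42.3 CPM against 18.0 to 22.2 CPM, a difference of 0.99 ± 0.15 (adjusted p = 0.00684), which was lost only when the 2 groups were fitted alone (0.98, adjusted p = 0.0714). For both genes the KI LIF/2i level lay between those of WT LIF/2i and KI LIF. Usp29 was at 9.08 to 19.7 CPM against 29.7 to 38.6 CPM (-1.39 ± 0.30, adjusted p = 0.0377). Zim1 had 0.313, 0.373 and 0.168 CPM in KI LIF/2i, 1.90, 1.07 and 1.82 CPM in WT LIF/2i, 1.04, 0.834 and 1.27 CPM in KI LIF, and 3.24 and 3.33 CPM in WT LIF. It was thus low in every sample and lowest in KI LIF/2i. Over 7 counts against 26 it was lower by a ratio of 5.11 (exact 95% interval 2.16 to 13.9, adjusted p = 0.0415).

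The calls of Usp29 and Zim1 were weak. Usp29 was lost without any 1 of the WT LIF/2i libraries, without WT LIF replicate 2, KI LIF/2i replicate 3, KI LIF replicate 2 or KI LIF replicate 3 (adjusted p from 0.0561 to 0.118), and with only the compared groups (0.101). Zim1 was lost without any of these libraries and without KI LIF/2i replicate 2 (0.0563 to 0.137), with limma-voom (0.0549) and with no filter (0.0587). Both were lost without both of the averaged WT LIF libraries (0.0582 and 0.0758). Peg3, the neighbour of both, had -0.76 ± 0.24 without passing (adjusted p = 0.116), though it did with DESeq2 (0.0446). Nnat, with the highest log2 difference of the tested members (2.47 ± 0.78, adjusted p = 0.109), did not pass. Nor did Dio3 (2.44 ± 0.76, adjusted p = 0.106). Neither gene overlapped between genotypes, and with DESeq2 Nnat (0.0261) and Dio3 (0.0327) passed. Phlda2 (2.41 ± 0.63, adjusted p = 0.0698) and Grb10, an adaptor that restrains insulin signalling and growth (-1.50 ± 0.38, adjusted p = 0.0613), did not pass. Grb10 did under 7 of 22 alternatives, with DESeq2 (0.00429), limma-voom (0.0458), no filter (0.0482), 12 separate libraries (0.0409) and the replicate block (0.0402), and without KI LIF/2i replicate 1 (0.0404) or KI LIF replicate 1 (0.0413). Phlda2 did under 4, with DESeq2 (0.00211), 12 libraries (0.0467) and the block (0.0372), and without KI LIF/2i replicate 1 (0.00601). Grb10 had 32.9, 48.4 and 23.4 CPM in WT LIF/2i, 14.4, 12.2 and 10.4 CPM in KI LIF/2i, 36.6 and 16.4 CPM in WT LIF, and 15.2, 8.55 and 5.92 CPM in KI LIF. Its KI samples were below its WT samples in both media. Without KI LIF/2i replicate 1, 9 members passed, adding Plagl1, Ddc and Grb10 as lower and Dio3 and Phlda2 as higher.

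**Figure D5:**
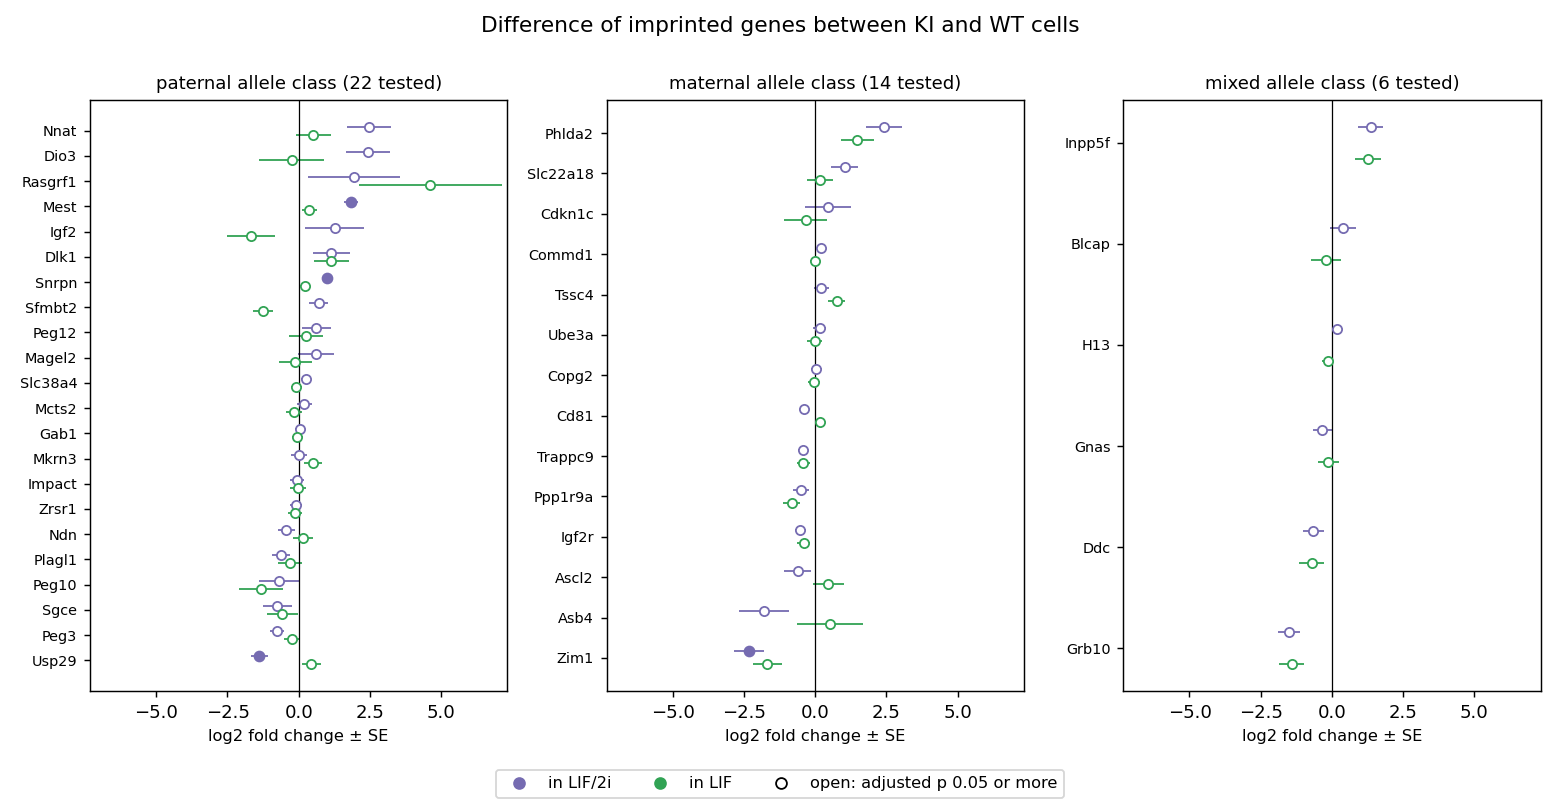
Log2 difference of KI from WT cells with its SE for the 42 tested members by allele class, in LIF/2i (purple) and in LIF (green); filled points have an adjusted p under 0.05. The 4 filled points, Mest, Snrpn, Usp29 and Zim1, are all in LIF/2i, and no member is filled in LIF.

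In LIF, 0 of 42 members passed between genotypes by edgeR, DESeq2 or limma-voom, where 0.144% of all genes (19) passed with edgeR. Without adjustment, 7 members had a p under 0.05, beside 1418 of all genes (10.7%). The 7 were Sfmbt2, Zim1, Grb10 and Ppp1r9a, with lower values in KI cells, and Phlda2, Tssc4 and Inpp5f, with higher ones. The smallest p belonged to Sfmbt2 (-1.26 ± 0.35, adjusted p = 0.226), whose groups overlapped and whose 2 WT LIF samples were at 71.4 and 227 CPM. With WT LIF replicate 2 alone standing for its group, Sfmbt2 passed (-1.86, adjusted p = 0.0271). Mest, at 304 to 379 CPM in KI and 177 and 333 CPM in WT LIF, differed by 0.38 ± 0.25 (adjusted p = 0.634). WT LIF had 2 samples, which limits this comparison.

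Whether the response to the medium differed between genotypes was tested by the interaction term. It passed for 0 of 42 members and 0 of 13229 genes by edgeR (0% of genes, smallest adjusted p over all genes 0.135), and for 0 members by DESeq2 and limma-voom. Without adjustment, 6 members had a p under 0.05, beside 5.98% of all genes (791). They were Mest (-1.47 ± 0.34, adjusted p = 0.505), Sfmbt2 (-1.96 ± 0.48, adjusted p = 0.671), Usp29 (1.82 ± 0.45, adjusted p = 0.671), Snrpn (-0.77 ± 0.22), Cd81 (0.59 ± 0.21) and Igf2 (-2.94 ± 1.32). Calls made in 1 genotype alone, such as Sfmbt2 in WT or Dlk1 in KI cells, are therefore not shown to differ between genotypes. Of the alternatives run, 1 gave a member past the test, Sfmbt2 without both of the averaged WT LIF libraries (-2.57, adjusted p = 0.0261).

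Members without a call included some of the most abundant. Impact, which encodes an inhibitor of the eIF2α kinase GCN2, had 158, 91.9 and 116 CPM in WT LIF/2i, 135 and 103 CPM in WT LIF, 86.8, 97.2 and 165 CPM in KI LIF/2i, and 108, 130 and 112 CPM in KI LIF. All 4 groups overlapped, and its log2 differences were -0.07 ± 0.25 and -0.03 ± 0.28 between genotypes and -0.03 ± 0.28 and 0.01 ± 0.25 between media. The amino acid transporter gene Slc38a4 ranged from 237 to 421 CPM, and Gab1, which encodes an adaptor of growth factor receptors, from 268 to 481 CPM. In the mixed class, Gnas, which encodes the stimulatory G protein alpha subunit, ranged from 114 to 304 CPM, and H13, a signal peptide peptidase gene, from 26.3 to 36.5 CPM. Commd1, a gene of copper and NF-κB control, ranged from 38.6 to 51.5 CPM. For these 6 genes no log2 difference between groups was over 0.39 in size. Of the 42 tested members, 23 passed in none of the comparisons.

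The genes that set, keep or read imprints were taken from a fixed list of 26, all of which were tested. Between genotypes 0 of the 26 passed by edgeR in either medium, beside 2.21% and 0.144% of all genes. At an unadjusted p under 0.05 there were 2 in LIF/2i and 4 in LIF, beside 20.5% and 10.7% of all genes. The smallest p was that of Dnmt3a in LIF, higher in KI cells without overlap (1.39 ± 0.33, adjusted p = 0.145). Calls under the alternative settings were not counted for this list. Between media 3 rose in WT cells (11.5%, beside 13% of all genes passing), and 3 rose and 1 fell in KI cells (15.4%, beside 9.05%). The de novo methyltransferase Dnmt3a had 71.1, 54.0 and 121 CPM in WT LIF/2i, 198 and 205 CPM in WT LIF, 114, 120 and 86.3 CPM in KI LIF/2i, and 351, 562 and 672 CPM in KI LIF. It rose by 1.31 ± 0.31 in WT (adjusted p = 0.0181) and by 2.30 ± 0.29 in KI cells (adjusted p = 0.000925). Its partner Dnmt3b was at 104 to 145 CPM in WT LIF/2i and 245 and 292 CPM in WT LIF, and at 103 to 156 and 277 to 425 CPM in KI cells (1.06 ± 0.22 and 1.47 ± 0.20, adjusted p = 0.00908 and 0.00137).

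Dnmt3l is the catalytically inactive cofactor that germ cells need to set imprints. It was at 25 to 248 CPM in WT LIF/2i, 430 and 468 CPM in WT LIF, 99.0 to 149 CPM in KI LIF/2i and 397 to 626 CPM in KI LIF. Its rise passed in KI cells (2.20 ± 0.62, adjusted p = 0.0454) and was of like size in WT cells without passing (2.10 ± 0.66, adjusted p = 0.0564). Ctcfl, the testis paralogue of CTCF, rose in WT cells from 0.266 to 0.608 CPM to 2.30 and 3.64 CPM (2.97 ± 0.70, adjusted p = 0.0164). Each WT LIF/2i sample had 2 counts, under the floor. In KI cells its media did not overlap either, without passing (1.75 ± 0.57, adjusted p = 0.0779). Uhrf1, which brings DNMT1 to newly copied DNA, was at 275 to 301 CPM in KI LIF/2i and 160 to 163 CPM in KI LIF (-0.83 ± 0.13, adjusted p = 0.00325). In WT cells it did not pass (-0.26 ± 0.15, adjusted p = 0.292). The other 21 genes of the list, among them Zfp57, Zfp445, Trim28 and Dnmt1, passed no test. Zfp57 was close to the threshold in KI cells, where it was lower in LIF without overlap (-0.64 ± 0.19, adjusted p = 0.0535). In WT cells its media overlapped (0.15 ± 0.21, adjusted p = 0.711). Transcript levels of these genes do not measure methylation, which was not analysed here.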

How the data were processed

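RNA was measured by sequencing in 12 libraries of mouse embryonic stem cells. RNA came from the supernatant of lysates made in the presence of cycloheximide, was depleted of ribosomal RNA and fragmented, and entered a ribosome profiling library protocol, per the labels' protocols. The authors deposited 1 table of unnormalized counts, which, per the file headers, are over the coding sequence of a single named transcript for each gene. Tools named without a role in the submitters' processing notes are UMI-tools 1.0.1, Bowtie 1.3.0 and cutadapt 3.4. Build, counter, strand and the handling of reads with more than 1 match: not given in the sources used here.

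Members and gene lists were chosen with earlier results of these data known. Allele classes come from general knowledge of mouse imprinting. Per-sample values were to be given for members past the test, the 4 highest per coding length in each class, Impact, and the smallest p of each comparison.

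Replicates were compared by chi-square (minimum 20 counts). In this test WT LIF replicates 1 and 3 gave 0.858 per degree of freedom, under sampling noise, and other pairs 2.61 or more, so that pair was averaged. The design had assumed 12 samples. edgeR 4.0.16 (R 4.3.3; filterByExpr, minimum count 10; TMM; robust quasi-likelihood F test, two-sided) was fitted over 11 samples with 1 mean per group, and p-values were adjusted over 13229 genes. Of 22416 rows, 4483 had no count. SE were taken from the F statistic. CPM are TMM-scaled. The script was tested on simulated data. Transcripts were matched to GENCODE M21 (GRCm38), 45 of 46 members with the same symbol. Ratios of summed counts use effective library sizes and an exact 95% conditional binomial interval, which covers counting error only.

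The groups share replicate numbers. Deviations from group means of same-numbered KI libraries correlated across media at 0.507, 0.388 and 0.224. Those of differently numbered KI libraries ran from -0.428 to 0.216, the highest for LIF/2i replicate 2 with LIF replicate 3. The numbers were taken to pair KI replicates there, least clearly for replicate 3. This comes from the data, since no label states it. In the other pairs of groups at least 1 correlation of same-numbered libraries was under 0.1. Alternatives were DESeq2 1.42.0, limma-voom (limma 3.58.1), DESeq2 size factors, library totals, no filter, a minimum count of 30, the compared groups alone, 12 separate libraries, a replicate block, and leaving out libraries. The KI block alone was chosen after seeing the data.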

Additional observations from a re-analysis of the deposited data

How the results depend on the processing

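No called member changed sign under any alternative run. Depth limits the genes near 3 counts, and leaving out replicate 2 of WT LIF, or both agreeing libraries, leaves 1 sample there, assumed to vary like the other groups. The cause of the changes below was not tested.

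Between genotypes in LIF/2i, the 293 genes and 4 members past the test became 917 and 10 with DESeq2, 65 and 1 with only the compared groups, and 522 genes with 12 separate libraries, 566 with the replicate block and 160 without both agreeing WT LIF libraries. Leaving out 1 library gave 64 to 996 genes and 2 to 9 members. Between genotypes in LIF, 19 genes became 206 with DESeq2, 11 with limma-voom, 42 with no filter, 31 with only the compared groups, 142 with 12 libraries, 174 with the replicate block, 2 without both agreeing WT LIF libraries (where 1 member passed), and 1 to 53 without 1 library; 0 members passed under every other alternative.

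Between media in WT cells, 1714 genes became 2737 with 12 libraries, 2856 with the replicate block, 766 without both agreeing WT LIF libraries, and 390 to 2167 without 1 library. The 15 members became 5 to 18 without 1 library and 19 with the replicate block. Without both agreeing libraries 11 members passed; Usp29 (adjusted p = 0.217), Ppp1r9a (0.156), Magel2 (0.106) and Ddc (0.126) were lost. Between media in KI cells, 1197 genes and 10 members became 747 and 6 with only the compared groups, 1798 genes with the replicate block in KI libraries, and 498 to 1337 genes and 3 to 12 members without 1 library. With no filter 7 members passed there, without Peg10 (0.168), Sgce (0.0559) and Phlda2 (0.0576), and limma-voom lost Dio3 (0.159) and Ddc (0.0636). The interaction had 0 genes, and 22 with DESeq2, 1 with 12 libraries, 2 with the replicate block, 1 (Sfmbt2, the 1 member) without both agreeing WT LIF libraries, and 0 to 4 without 1 library.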

Other observations

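Rasgrf1, a paternally expressed gene for a Ras exchange factor, was named after its values were seen. It had 4.70 CPM in KI LIF/2i replicate 1 and 7.62 CPM in KI LIF replicate 1, from 45 and 22 counts, and at most 1.11 CPM in each of the other 9 samples. Replicates 2 and 3 of KI cells had 0 and 0.504 CPM in LIF/2i, and in LIF both were at 0 CPM. It passed no test.

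Inpp5f, an inositol phosphatase gene of the mixed class also named after its values were seen, had 6.16, 7.19 and 23.7 CPM in WT LIF/2i, 28.8 and 18.6 CPM in WT LIF, 22.9, 37.1 and 30.2 CPM in KI LIF/2i, and 45.0, 62.2 and 63.9 CPM in KI LIF. WT LIF/2i replicate 3 stood above the other 2 of its group. The KI difference in LIF/2i was 1.36 ± 0.43 (edgeR adjusted p = 0.112), and it passed without that library (2.16, adjusted p = 0.0116).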
